A study of Mus musculus with 12 samples.

Results

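The genes described here are 10 of the 45777 genes in a count table from mouse mpkCCDc11 cells, which derive from the cortical collecting duct of the kidney: the transcription factors Nfat5, Nfatc1, Nfatc2, Nfatc3 and Nfatc4, the calcineurin subunit Ppp3ca, the calcineurin inhibitors Rcan1 and Rcan2, and the osmotic target genes Akr1b3 and Hspa4l. They were chosen by gene symbol with earlier results of these data known, and all 10 were found. The gene lists used below were chosen in the same way, so counts set beside shares over all genes only describe. RNA was sequenced from 12 libraries in 4 groups of 3: control siRNA with vehicle, control siRNA with dDAVP, TAZ siRNA with vehicle, and TAZ siRNA with dDAVP. TAZ is the transcriptional coactivator of the Hippo pathway that Wwtr1 encodes, and dDAVP is a synthetic agonist of the vasopressin V2 receptor, applied at 1e-09 M to the basolateral side. The question of the series was the part of TAZ in the regulation of aquaporin-2, a water channel under vasopressin control. The labels give the genotype as WT for the control siRNA groups and as TAZ knockdown for the TAZ siRNA groups. All 4 groups were grown on permeable filters, and were kept without serum and hormones before treatment. The labels name no change in the tonicity of the medium, give several exposure times to dDAVP without tying one to these libraries, and leave unstated whether replicate libraries are separate cultures. The p-values therefore measure only the spread between these samples, and that spread may be technical.

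NFATc proteins wait in the cytoplasm as phosphoproteins. When calcium rises, calmodulin activates the phosphatase calcineurin, which removes the phosphates and lets NFATc enter the nucleus, and kinases such as GSK3 and DYRK1A send it out again. Rcan1 is both a target and an inhibitor of this pathway: its short form starts at an internal promoter known for calcineurin-dependent induction. NFAT5, also called TonEBP, shares the DNA-binding domain but not the control by calcineurin. It answers to tonicity and drives the genes by which cells of the renal medulla gather organic osmolytes, such as aldose reductase (Akr1b3) and the inositol transporter Slc5a3, and it also acts on urea and water transport genes of the collecting duct.

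The sequences upstream of the 2 Rcan1 start sites are shown because the 2 transcript forms were measured separately. Each is the 250 bases before a RefSeq start site on the minus strand of GRCm38.p6, written 5′ to 3′ in the direction of transcription. The long form starts after chr16:92466170-92466419 and the short form after chr16:92400079-92400328. Capitals mark GGAAA, the core of NFAT sites, and its reverse complement TTTCC, and the palindrome TGACGTCA, the full cAMP response element.
Rcan1 long form: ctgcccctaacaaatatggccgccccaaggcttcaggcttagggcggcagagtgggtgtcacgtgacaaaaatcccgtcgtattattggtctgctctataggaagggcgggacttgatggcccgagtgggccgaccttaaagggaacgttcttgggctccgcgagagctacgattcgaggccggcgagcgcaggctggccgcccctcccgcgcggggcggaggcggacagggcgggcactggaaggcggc
Rcan1 short form: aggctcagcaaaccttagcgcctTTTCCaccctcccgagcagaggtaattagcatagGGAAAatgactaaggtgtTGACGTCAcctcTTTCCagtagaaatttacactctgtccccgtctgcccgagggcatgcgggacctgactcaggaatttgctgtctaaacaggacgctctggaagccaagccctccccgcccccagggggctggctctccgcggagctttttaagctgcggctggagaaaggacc
The window of the short form held 3 matches to GGAAA on either strand, at 227 to 223, 193 to 189 and 163 to 159 bases before the start, and 1 match to TGACGTCA, at 175 to 168 bases. The window of the long form held 0 of either. Among the other members, 1 window of Nfatc2 and the window of Nfatc4 also held 3 GGAAA matches each, and 0 of TGACGTCA. Among 32851 RefSeq promoter windows of this length, 55.6% held at least 1 GGAAA, 6.39% held 3 or more, and 1.55% held TGACGTCA. A match is a run of letters and not a measured binding site.

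Per transcript length, the members spanned a wide range. In FPKM, the deposited unit that divides by length and depth, the order in the control siRNA vehicle group was Akr1b3 (92.5 ± 11), Nfat5 (81.2 ± 3.0), Nfatc3 (29.6 ± 0.5), Ppp3ca (21.3 ± 0.5), Hspa4l (16.3 ± 0.8), Nfatc2 (12.8 ± 0.2), Nfatc4 (10.9 ± 0.4), Rcan1 (10.8 ± 0.5) and Nfatc1 (2.82 ± 0.11), each as mean ± SD of 3 libraries. Akr1b3 and Nfat5 overlapped in this order, as did Nfatc4 and Rcan1, and every other pair of neighbours was separated in all 3 libraries. Nfat5 lay above 96.1% and Nfatc1 above 35.9% of the 15932 genes tested. Of the summed FPKM of Nfatc1 to Nfatc4, Nfatc3 held 52.8% ± 0.3, Nfatc2 22.7% ± 0.6 and Nfatc1 5.03% ± 0.21 in that group. With dDAVP the share of Nfatc3 was 50.3% ± 0.6 with control siRNA and 51.1% ± 0.9 with TAZ siRNA, beside 53.8% ± 0.7 with TAZ siRNA and vehicle. These shares were not tested, and each depends on the levels of the other NFATc factors too. Rcan2, the second calcineurin inhibitor, was at 0 counts in 10 libraries, with 1 count in library 2 of control siRNA with dDAVP and 3 counts in library 1 of TAZ siRNA with dDAVP. It was not tested, and a count of 3 corresponds to 0.0486 to 0.0665 CPM, the count scaled to a common library total, at these depths.

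The libraries held 45095331 to 61725339 counts. Wwtr1, the siRNA target, fell by 35.5% with vehicle (log2 fold change -0.63 ± 0.05 SE, adjusted p = 4e-06) and by 31.4% with dDAVP (-0.54 ± 0.05, adjusted p = 5.54e-06), so the knockdown was partial. Library 2 of TAZ siRNA with dDAVP had the most Wwtr1 of its group (127 CPM, against 108 and 109) and stood apart on the third principal component, at -32.2 where the other 11 libraries lay between -8.32 and 20.4. It also had the highest Nfat5, Nfatc2, Nfatc3 and Ppp3ca of its group. Without it the same members were called in the comparisons that use it: with dDAVP under TAZ siRNA, Nfat5 (-0.25), Hspa4l (-0.22), Nfatc2 (0.16) and Rcan1 (0.31), and with TAZ siRNA under dDAVP, Ppp3ca (-0.22). The 10 principal cell markers summed to 1209 to 1355 CPM in every library, and those of other nephron segments to at most 0.516 CPM. Of the 6 intercalated cell markers, 3 were at 0 throughout. Foxi1, Atp6v1g3, Slc4a1 and Slc26a4 were too low to be tested, which leaves Atp6v1b1 and Car2. The 6 summed to 136 to 156 CPM with vehicle and 161 to 191 CPM with dDAVP. The part of these markers in the results below was not tested. Library totals, and with them CPM, are relative, so in these bulk libraries less RNA per cell and fewer cells of a kind cannot be told apart.

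Members were tested within a fit over all 15932 genes that passed a low-count filter, and a gene is said to rise or fall where its adjusted p (edgeR quasi-likelihood F test, Benjamini-Hochberg over those genes) was under 0.05. Of the 9 members tested, 4 changed with dDAVP under control siRNA, where 19.2% of all genes did: Rcan1 and Ppp3ca rose (9.72% of all genes rose), Nfat5 and Nfatc3 fell (9.48% fell). With TAZ siRNA 4 changed, against 10.8% of all genes: Rcan1 and Nfatc2 rose (6.38% of all genes), Nfat5 and Hspa4l fell (4.41%). TAZ siRNA lowered 2 of 9 with vehicle (Nfatc2 and Nfatc4) and 1 of 9 with dDAVP (Ppp3ca). Of all genes, TAZ siRNA changed 6.3% with vehicle (3.19% higher, 3.11% lower) and 10.7% with dDAVP (5.77% higher, 4.97% lower), and the unadjusted p was under 0.05 for 5 and 2 members there. No member passed the test of the difference between the 2 dDAVP responses, where 0.0314% of genes did; 1 member, Nfatc2, had an unadjusted p under 0.05 there, and DESeq2 and limma-voom also called 0. The median log2 change of the 9 members was 0.03 and 0.12 for dDAVP with control and TAZ siRNA and -0.08 and 0.01 for TAZ siRNA with vehicle and dDAVP, beside medians over all genes of -0.00125, -0.000854, 0.00174 and 0.00252. The 2 dDAVP comparisons share no library, but each TAZ comparison shares libraries with both, so a level in the TAZ siRNA vehicle group enters 2 contrasts.

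**Figure D1:**
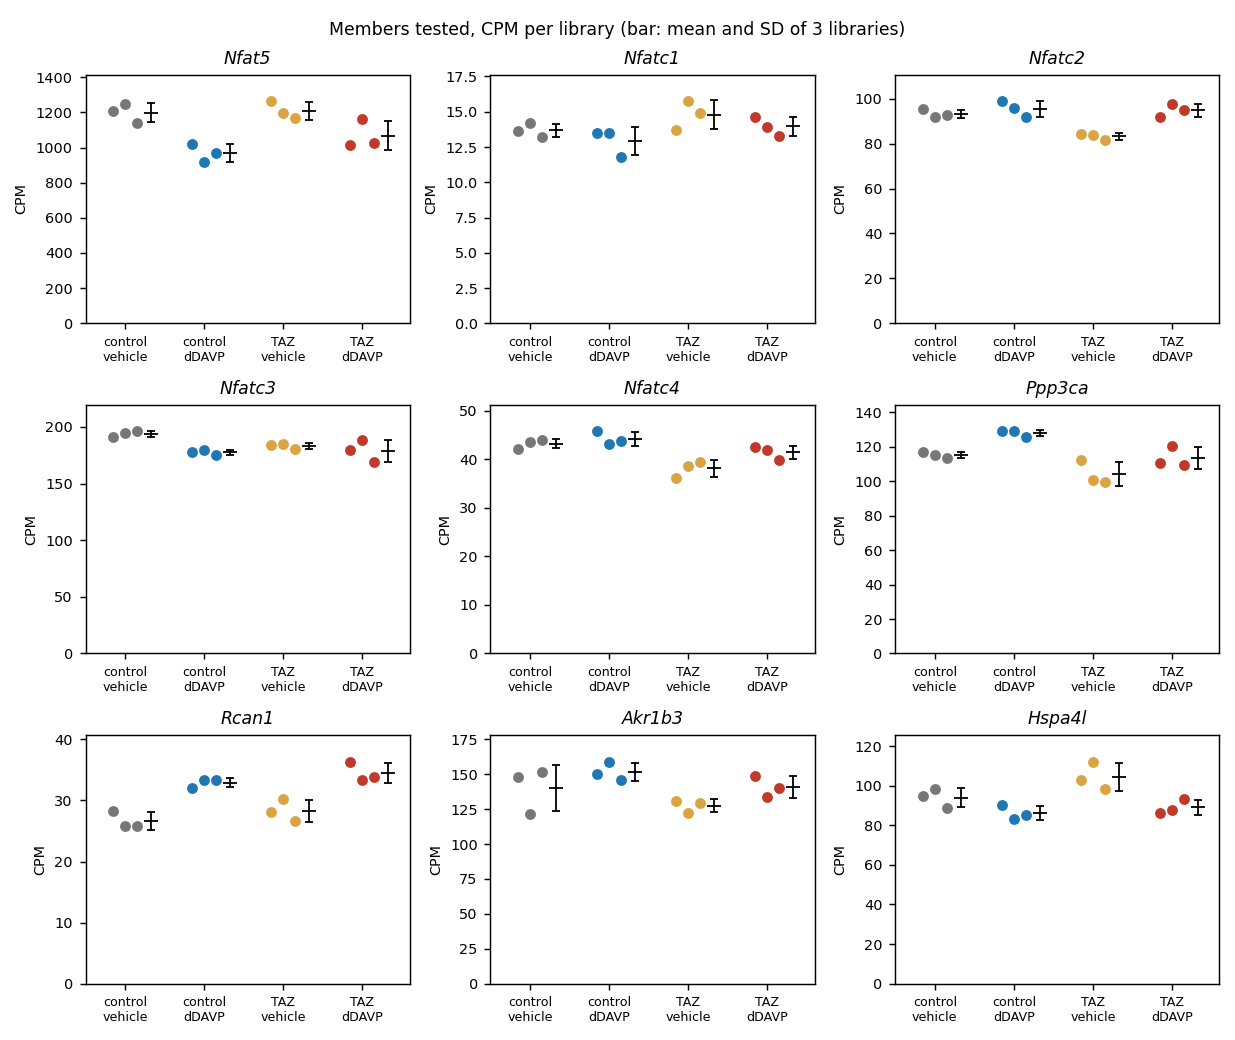
CPM of the 9 tested members in each of the 12 libraries (points; 3 per group, colours by group), with the group mean and SD beside them; the vertical axis of each panel starts at 0. Nfat5 is lower and Rcan1 higher in all dDAVP libraries than in the vehicle libraries of the same siRNA.

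**Figure D2:**
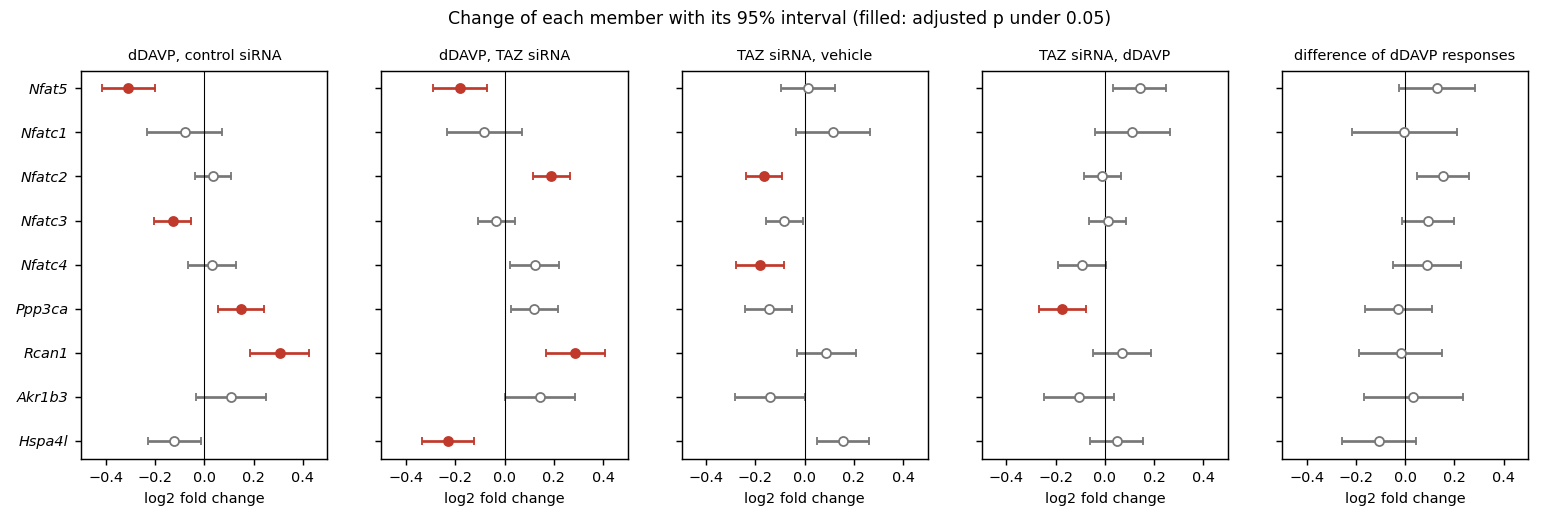
Log2 fold change of each tested member with its 95% interval in the 4 group comparisons and for the difference of the dDAVP responses; filled points passed the test. Rcan1 and Nfat5 are filled in both dDAVP comparisons, in opposite directions, and no point is filled in the last panel.

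Nfat5 (gene identifier 54446, chr8:107293435-107379517 in mm10) fell with dDAVP. Its CPM was 1209, 1248 and 1139 in the control siRNA vehicle libraries and 1018, 918 and 968 with dDAVP. With TAZ siRNA it was 1264, 1196 and 1166 with vehicle and 1016, 1161 and 1024 with dDAVP. In both siRNA arms every dDAVP library lay below every vehicle library, but with TAZ siRNA the second dDAVP library (1161) lay next to the lowest vehicle library (1166). The log2 fold change was -0.31 ± 0.05 with control siRNA (a fall by 19.2%, adjusted p = 0.000366), and it passed in all 18 alternative fits. With TAZ siRNA it was -0.18 ± 0.05 (adjusted p = 0.0326), and this call was lost without TAZ siRNA vehicle library 1 (0.112) or 2 (0.0712), or TAZ siRNA dDAVP library 1 (0.140) or 3 (0.126). The difference between the responses was 0.13 ± 0.07 (95% interval -0.03 to 0.28, adjusted p = 0.675). TAZ siRNA gave 0.01 ± 0.05 with vehicle (adjusted p = 0.934) and 0.14 ± 0.05 with dDAVP (adjusted p = 0.0963). Among the genes that changed with dDAVP under control siRNA, 34.8% moved at least as far as Nfat5.

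Over the 12 libraries, the genes whose log2 CPM followed Nfat5 most closely were Cplane1 (Pearson r = 0.98), Pcgf3 (0.97), Camta1 (0.97), Arhgap21 (0.97) and Zfyve9 (0.96). Among members, Hspa4l (0.74) and Nfatc3 (0.67) had the highest correlation with Nfat5, and Rcan1 (-0.73) and Akr1b3 (-0.73) the lowest. These values describe libraries that share groups and depth.

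Nfatc3, the most abundant NFATc factor, fell slightly with dDAVP under control siRNA. Its CPM was 191, 195 and 196 with vehicle and 178, 180 and 175 with dDAVP, and the groups did not overlap. The log2 fold change was -0.13 ± 0.04 (adjusted p = 0.0160), and the call was lost without control siRNA vehicle library 2 (0.0523) or 3 (0.0535) or control siRNA dDAVP library 3 (0.0601). With TAZ siRNA, values of 184, 185 and 181 with vehicle overlapped 180, 188 and 169 with dDAVP (-0.03 ± 0.04, adjusted p = 0.632). The TAZ siRNA gave -0.08 ± 0.04 with vehicle (adjusted p = 0.190) and 0.01 ± 0.04 with dDAVP (adjusted p = 0.883).

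Nfatc2, first described in T cells, stood out for its low level in 1 group. Its CPM was 95.3, 91.9 and 92.7 with control siRNA and vehicle, 98.9, 95.9 and 91.9 with control siRNA and dDAVP, 84.1, 83.9 and 81.6 with TAZ siRNA and vehicle, and 92.0, 97.7 and 95.1 with TAZ siRNA and dDAVP. The 3 TAZ siRNA vehicle libraries lay below the other 9, which overlapped one another. Accordingly Nfatc2 fell with TAZ siRNA under vehicle (-0.17 ± 0.04, adjusted p = 0.00946; 0.0579 without control siRNA vehicle library 1) and rose with dDAVP under TAZ siRNA (0.19 ± 0.04, adjusted p = 0.00145, kept in all 18 alternative fits), and both contrasts use the same 3 low libraries. With control siRNA the dDAVP change was 0.03 ± 0.04 (adjusted p = 0.566). The difference between the responses was 0.15 ± 0.05 (95% interval 0.05 to 0.26), with an unadjusted p of 0.0067 and an adjusted p of 0.378, which did not pass.

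Nfatc4 followed a similar order at a lower level. Its CPM was 42.1, 43.5 and 44.0 with control siRNA and vehicle, 45.7, 43.0 and 43.7 with control siRNA and dDAVP, 36.2, 38.5 and 39.5 with TAZ siRNA and vehicle, and 42.4, 42.0 and 39.9 with TAZ siRNA and dDAVP. It fell with TAZ siRNA under vehicle (-0.18 ± 0.05, adjusted p = 0.0255). That call was lost without control siRNA vehicle library 2 (0.0678) or 3 (0.0876), without TAZ siRNA vehicle library 1 (0.0588) or 2 (0.0688), and when the 2 groups were fitted alone (0.0513). With dDAVP the TAZ siRNA libraries were also below the control siRNA libraries, by -0.09 ± 0.05 on the log2 scale (adjusted p = 0.239). The dDAVP changes were 0.03 ± 0.05 with control siRNA (adjusted p = 0.703) and 0.12 ± 0.05 with TAZ siRNA (adjusted p = 0.110).

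Nfatc1, the least abundant factor, overlapped between the groups in each of the 4 comparisons. Its 12 libraries ran from 11.8 to 15.7 CPM, and its log2 changes were -0.08 ± 0.07 for dDAVP with either siRNA and 0.11 ± 0.07 for TAZ siRNA with either treatment (adjusted p from 0.375 to 0.548). The 95% interval of the dDAVP change was -0.23 to 0.07 in both arms.

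Ppp3ca (gene identifier 19055, chr3:136669714-136937727), the catalytic alpha subunit of calcineurin, rose with dDAVP under control siRNA and was lower with TAZ siRNA. Its CPM was 117, 116 and 114 with control siRNA and vehicle and 129, 129 and 126 with control siRNA and dDAVP. With TAZ siRNA it was 113, 101 and 99.7 with vehicle and 110, 121 and 109 with dDAVP. The control groups did not overlap, and all TAZ siRNA libraries lay below those of control siRNA in the same treatment. The dDAVP change with control siRNA was 0.15 ± 0.04 (adjusted p = 0.0265), which was lost on leaving out any 1 of the 6 control siRNA libraries (adjusted p from 0.0517 to 0.104). With TAZ siRNA it was 0.12 ± 0.05 (adjusted p = 0.10, and 0.00788 without TAZ siRNA vehicle library 1). The TAZ siRNA effect with dDAVP was -0.17 ± 0.05 (adjusted p = 0.0188), lost without control siRNA dDAVP library 1 (0.0602) or 2 (0.0635) or TAZ siRNA dDAVP library 1 (0.0835) or 3 (0.0929). With vehicle it was -0.15 ± 0.05 (adjusted p = 0.0644). That value passed in DESeq2 (0.0365), without TAZ siRNA vehicle library 1 (0.00323) and without TAZ siRNA dDAVP library 2 (0.0371).

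Rcan1 (gene identifier 54720, chr16:92391951-92466169) rose with dDAVP in both siRNA arms. Its CPM was 28.3, 25.8 and 25.8 with control siRNA and vehicle and 32.0, 33.4 and 33.3 with dDAVP, and with TAZ siRNA 28.2, 30.2 and 26.6 with vehicle and 36.4, 33.4 and 33.9 with dDAVP. All 6 dDAVP libraries lay above all 6 vehicle libraries. The log2 change was 0.31 ± 0.06 with control siRNA (a rise of 23.6%, adjusted p = 0.000827) and 0.29 ± 0.06 with TAZ siRNA (22.1%, adjusted p = 0.00218), and both passed in all 18 alternative fits. The difference of the responses was -0.02 ± 0.08, with a 95% interval of -0.19 to 0.15. TAZ siRNA gave 0.09 ± 0.06 with vehicle (adjusted p = 0.425) and 0.07 ± 0.06 with dDAVP (adjusted p = 0.488). The genes nearest to Rcan1 over the 12 libraries were Ly6e (r = 0.96), Ddrgk1, Jdp2, Casp14 and the pseudogene Gstm2-ps1 (0.95 each).

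The 2 transcript forms of Rcan1 were counted separately, and no test of either form or of their share over all 12 libraries passed. The short form, which starts at 92400078 below the window with the 3 GGAAA matches shown above, had a transcript CPM of 12.2 ± 2.7 with control siRNA and vehicle, 17.2 ± 2.3 with dDAVP, 11.7 ± 1.8 with TAZ siRNA and vehicle, and 18.8 ± 2.2 with TAZ siRNA and dDAVP (SD, n = 3). The long form, which starts at 92466169, was at 14.5 ± 3.5, 15.7 ± 1.8, 16.7 ± 0.5 and 15.6 ± 1.0 in the same order. Over transcripts the changes of the short form were 0.50 ± 0.20 and 0.68 ± 0.20 with control and TAZ siRNA, with unadjusted p of 0.0322 and 0.00668 and adjusted p of 0.588 and 0.455 over 53174 transcripts, so neither passed. Those of the long form were 0.12 ± 0.18 and -0.10 ± 0.18. None of the 45 transcripts of the members passed in any of the 5 comparisons, where 0.512%, 0.244%, 0.0188%, 0.0865% and 0.00376% of all transcripts did; 9, 3, 1, 7 and 4 of them had an unadjusted p under 0.05.

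The short form held 38.1%, 40.9% and 58.8% of Rcan1 counts in the control siRNA vehicle libraries and 46.2%, 51.7% and 58.6% with dDAVP. With TAZ siRNA its share was 43.0%, 43.6% and 36.6% with vehicle and 57.5%, 49.9% and 56.1% with dDAVP. The TAZ siRNA groups did not overlap, whereas the third control siRNA vehicle library had the highest share of all 12. The mean difference of dDAVP over vehicle within siRNA was 9.83 percentage points, with p = 0.05 in an exact two-sided permutation test of 400 permutations (smallest p 0.005; 0.10 adjusted over the 2 tests of the share), which did not pass. Leaving out 1 library gave differences of 7.87 to 13.1 points. The largest was without control siRNA vehicle library 3, with an unadjusted exact permutation p of 0.010 from fewer permutations. Among the tests of the share without 1 library, 3 had an unadjusted exact permutation p under 0.05, this one included. The split of reads between overlapping forms is an estimate of the authors' software. TAZ siRNA changed the share by -1.26 points (exact permutation p = 0.795).

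**Figure D3:**
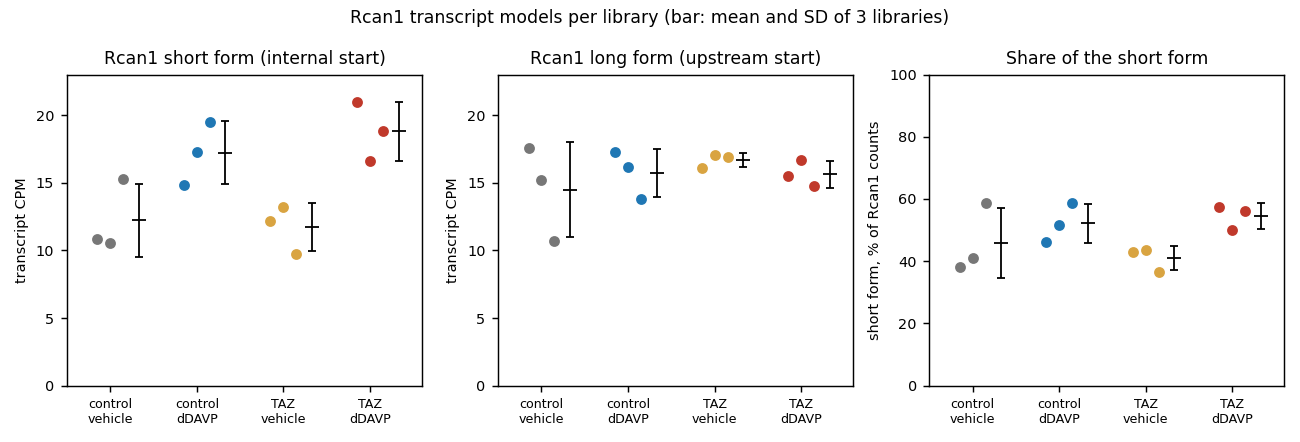
Transcript CPM of the short and long forms of Rcan1 and the percentage of Rcan1 counts in the short form, in each of the 12 libraries (points) with group mean and SD. The short form averages 17.2 and 18.8 CPM with dDAVP and 12.2 and 11.7 with vehicle, and 1 vehicle library of control siRNA lies among the dDAVP libraries in the last panel.

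Hspa4l (gene identifier 18415, chr3:40744500-40796103), a chaperone of the HSP110 family also known as osmotic stress protein 94, fell with dDAVP under TAZ siRNA. Its CPM was 103, 112 and 98.2 with vehicle and 86.1, 88.0 and 93.4 with dDAVP, with no overlap (-0.23 ± 0.05, a fall by 14.7%, adjusted p = 0.00549, passed in all 18 alternative fits). With control siRNA, 94.7, 98.2 and 88.6 with vehicle overlapped 90.4, 83.4 and 85.0 with dDAVP (-0.12 ± 0.05, adjusted p = 0.110). The difference of the responses was -0.11 ± 0.07 (adjusted p = 0.737). TAZ siRNA gave 0.15 ± 0.05 with vehicle (adjusted p = 0.0784).

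The FPKM of Hspa4l does not carry the same comparison. It was 15.4 to 19.2 in the 6 vehicle libraries and in the first dDAVP library of each siRNA 16.1 and 15.0, but 8.40, 8.60, 10.3 and 9.54 in the other 4 dDAVP libraries. In those 4 the deposited split between transcript models assigned 97, 83, 446 and 119 counts to the model of 3558 bases, against 2157 to 3110 counts in the other 8, and moved the rest to a model of 9584 bases. The gene's count is the sum over models and does not contain that step, so the tests use counts. Of the 3 tested models of Hspa4l, 0 passed with dDAVP in either arm. Whether the step is a change of transcript form or of the split was not tested.

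**Figure D4:**
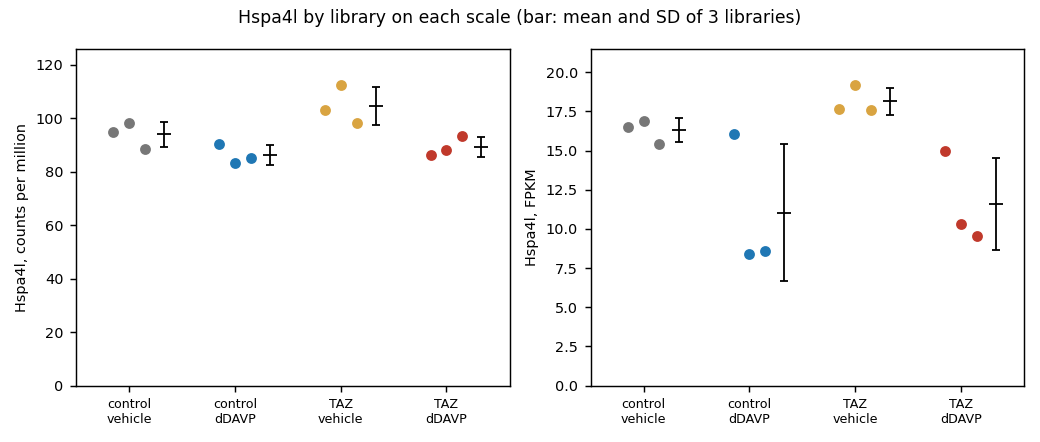
Hspa4l in each of the 12 libraries as CPM (left) and as deposited FPKM (right), points with group mean and SD, axes from 0. On the right, dDAVP libraries 2 and 3 of both siRNAs lie between 8.40 and 10.3 FPKM and the other 8 between 15.0 and 19.2, while on the left all 12 lie between 83.4 and 112 CPM.

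Akr1b3 (gene identifier 11677, chr6:34303930-34317489), aldose reductase, which makes sorbitol, did not pass in any comparison. Its CPM was 148, 122 and 152 with control siRNA and vehicle, 150, 159 and 146 with control siRNA and dDAVP, 131, 123 and 129 with TAZ siRNA and vehicle, and 149, 134 and 140 with TAZ siRNA and dDAVP. The dDAVP change was 0.11 ± 0.07 with control siRNA (95% interval -0.03 to 0.25, adjusted p = 0.299) and 0.14 ± 0.07 with TAZ siRNA (adjusted p = 0.209). Control siRNA vehicle library 2, the lowest of all 12, decides this gene: without it the TAZ siRNA effect with vehicle moved from -0.14 ± 0.07 (adjusted p = 0.259) to -0.23 (0.0111), the dDAVP change with TAZ siRNA passed (0.0459), and that with control siRNA was 0.02.

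Other osmotic and NFAT5 target genes were taken as a list of 19, of which 17 were tested. With dDAVP 6 rose and 0 fell under control siRNA, where 9.72% of all genes rose, and 5 rose and 0 fell under TAZ siRNA, where 6.38% rose. In both arms these counts include Aqp2, Slc14a2 and the near-identical pair Hspa1a and Hspa1b. The median log2 change of the list was 0.10 and 0.05. Slc5a3, the sodium-coupled inositol transporter, was at 63.2 ± 1.7 and 105 ± 7.9 CPM without and with dDAVP under control siRNA (0.73 ± 0.06, adjusted p = 5.45e-08), and at 61.8 ± 3.6 and 91.4 ± 6.0 CPM under TAZ siRNA (0.56 ± 0.06, adjusted p = 2.39e-06). Slc5a3 shares exons with Mrps6, so its reads may be divided between the 2. The near-identical heat-shock genes Hspa1a (0.28 ± 0.05 and 0.25 ± 0.05) and Hspa1b (0.25 ± 0.05 and 0.27 ± 0.05) rose in both arms, and the division of reads between the 2 is not stated in the labels.

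Collecting duct transporters were also called in that list. Slc14a2, the urea transporter gene, had 0 counts in all 6 vehicle libraries and 24 and 40 counts in total with dDAVP under control and TAZ siRNA. Against a floor of 3 counts per group these are 7.37-fold and 16.1-fold higher. Low transcript values were rounded up, and gene counts are sums over transcripts. The counts of Slc14a2 may therefore be too high, and the ratios are not lower bounds. Aqp2, the water channel, had 55 counts with vehicle and 6036 with dDAVP under control siRNA and 9 and 1669 under TAZ siRNA, where all 9 were in vehicle library 1. It was lower with TAZ siRNA under dDAVP (-1.66 ± 0.21, adjusted p = 0.000555). Hspa4, a chaperone named here after its values were seen, rose by 0.10 ± 0.03 with control siRNA (adjusted p = 0.0213, up to 0.109 without 1 library). Of the 17 tested genes of this list, TAZ siRNA raised 1 under vehicle, where 3.19% of all genes rose. Under dDAVP it raised 1 and lowered 2, where 5.77% of all genes rose and 4.97% fell. These edgeR counts are not far from the shares over all genes. At an unadjusted p under 0.05 there were 5 genes of the list with vehicle and 10 with dDAVP. DESeq2 called 2 and 5, and limma-voom 1 and 3. Under dDAVP the median log2 change of the list with TAZ siRNA was -0.08, beside 0.00252 over all genes. The gene raised under vehicle was Hsph1, a chaperone named after its values were seen (0.16 ± 0.04, adjusted p = 0.033). It passed in 4 of the 12 fits that left out 1 library, with adjusted p of 0.00688 to 0.231. With TAZ siRNA under dDAVP, Slc5a3 fell by 0.20 ± 0.06 on the log2 scale (adjusted p = 0.0267; 0.110 to 0.137 without control siRNA dDAVP library 1 or TAZ siRNA dDAVP library 1 or 3). Pnpla6, a phospholipase, was higher there by 0.15 ± 0.04 (adjusted p = 0.0107; 0.0501 to 0.0851 without control siRNA dDAVP library 2 or 3 or TAZ siRNA dDAVP library 1 or 3). Slc6a12, the betaine transporter and a classical NFAT5 target named after its values were seen, did not pass: its CPM was 0.525 and 0.257 without and with dDAVP under control siRNA (-1.01 ± 0.35, adjusted p = 0.0526).

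**Figure D5:**
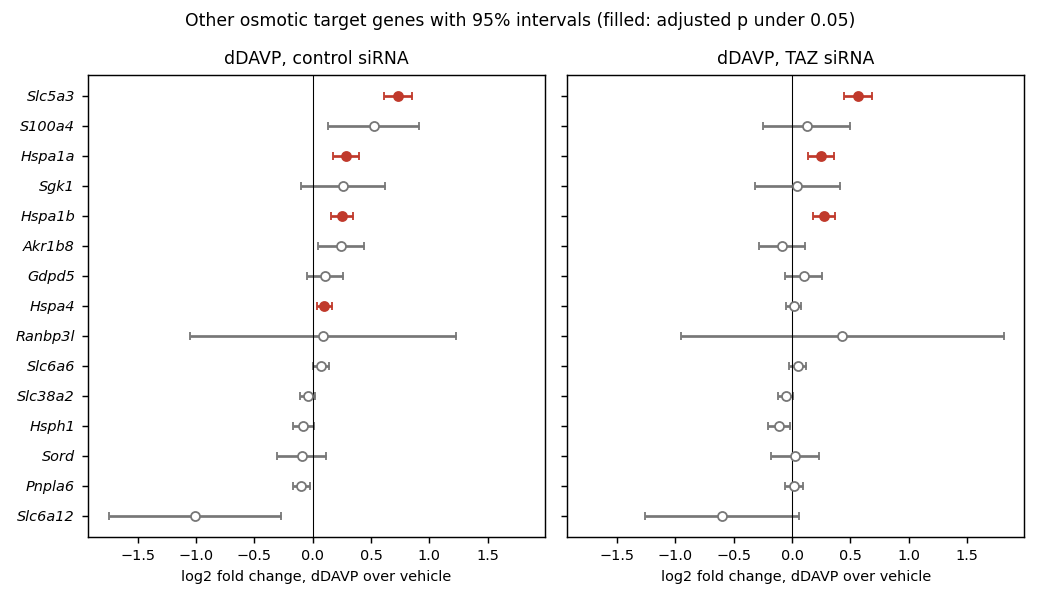
Log2 fold change for dDAVP over vehicle, with 95% intervals, of 15 of the 17 tested genes of the osmotic list under control siRNA (left) and TAZ siRNA (right); filled points passed the test, and Aqp2 and Slc14a2 are off this scale and not drawn. Slc5a3, Hspa1a and Hspa1b are filled in both panels and Hspa4 on the left.

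Of 7 NFATc target genes listed, 5 were tested. Of these, 2 rose with dDAVP under control siRNA (9.72% of all genes rose), 1 with dDAVP under TAZ siRNA (6.38%) and 2 with TAZ siRNA under vehicle (3.19%), and 0 were lower in these comparisons. Ptgs2, cyclooxygenase-2, was at 17.8, 19.1 and 17.1 CPM with control siRNA and vehicle and 41.3, 39.1 and 37.4 with dDAVP (1.13 ± 0.07, adjusted p = 4.53e-09). With TAZ siRNA it was at 19.7, 24.9 and 23.9 with vehicle and 35.9, 35.8 and 34.2 with dDAVP (0.63 ± 0.07, adjusted p = 1.01e-05). The groups did not overlap in either arm. The difference of the responses, -0.50 ± 0.10, did not pass in edgeR (adjusted p = 0.0787) and did in DESeq2 (0.00412) and without TAZ siRNA vehicle library 1 (0.00398). Under vehicle TAZ siRNA raised Ptgs2 by 0.35 ± 0.07 (adjusted p = 0.00944; 0.0555 to 0.0808 without control siRNA vehicle library 3 or TAZ siRNA vehicle library 2 or 3). Adamts1, a secreted protease, rose with dDAVP under control siRNA (0.35 ± 0.06, adjusted p = 0.000631), and its change with dDAVP under TAZ siRNA was -0.00166 ± 0.063 (adjusted p = 0.994). The difference of these responses, -0.35 ± 0.09, did not pass in edgeR (adjusted p = 0.231) and did in DESeq2 (0.0383). The rise of Adamts1 with TAZ siRNA under vehicle (0.23 ± 0.06, adjusted p = 0.0387) was lost in 9 of 18 alternative fits: in limma-voom, with the replicate block, in the compared groups alone, and without control siRNA vehicle library 2 or 3, control siRNA dDAVP library 3, TAZ siRNA vehicle library 2 or 3, or TAZ siRNA dDAVP library 3 (0.0511 to 0.220).

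The genes listed for calcium release, calcium entry and its return to stores were all tested (10 of 10). With dDAVP 2 rose and 0 fell in each arm, where 9.72% of all genes rose with control siRNA and 6.38% with TAZ siRNA. Trpv4, a calcium channel that also responds to osmotic swelling, was at 223 ± 2.1 and 301 ± 9.2 CPM under control siRNA (0.43 ± 0.03, adjusted p = 5.61e-08) and at 248 ± 9.8 and 344 ± 6.8 under TAZ siRNA (0.47 ± 0.03, adjusted p = 3.06e-08). It was also higher with TAZ siRNA under dDAVP (0.19 ± 0.03, adjusted p = 0.00119) and under vehicle (0.15 ± 0.03, adjusted p = 0.0123; 0.0535 to 0.0855 without control siRNA vehicle library 1 or TAZ siRNA vehicle library 2 or 3). Stim2, a calcium sensor of the endoplasmic reticulum, rose with dDAVP under control siRNA (0.31 ± 0.03, adjusted p = 2.03e-06), and was lower with TAZ siRNA under dDAVP (-0.20 ± 0.03, adjusted p = 0.000747). Orai1, the channel pore that STIM proteins open, rose with dDAVP under TAZ siRNA (0.30 ± 0.07, adjusted p = 0.0101; lost without TAZ siRNA vehicle library 2 or dDAVP library 1, 0.0617 and 0.0570). It was also higher with TAZ siRNA under dDAVP (0.28 ± 0.07, adjusted p = 0.0172; 0.0936 without control siRNA dDAVP library 1 and 0.0849 without TAZ siRNA dDAVP library 1). The difference of the responses did not pass for Stim2 (adjusted p = 0.126, but 0.00583 in DESeq2) or Orai1 (adjusted p = 0.412).

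Among other calcineurin and calmodulin genes, 11 of 12 were tested; 2 rose and 1 fell with dDAVP under control siRNA, where 9.72% of all genes rose and 9.48% fell, and 1 rose under TAZ siRNA, where 6.38% did. These counts are near the shares over all genes. Ppp3cc, the catalytic gamma subunit, rose in both arms (0.26 ± 0.05, adjusted p = 0.0023, and 0.23 ± 0.06, adjusted p = 0.0103; the second was lost without TAZ siRNA vehicle library 3 or dDAVP library 2, 0.0591 and 0.0681). Akap5, which anchors calcineurin at the membrane, fell with dDAVP under control siRNA (-0.57 ± 0.13, adjusted p = 0.00367). Ppia, cyclophilin A, rose there by 0.21 ± 0.06 (adjusted p = 0.0143; 0.0561 to 0.0784 without control siRNA vehicle library 2 or dDAVP library 2 or 3). Cabin1, a calcineurin-binding inhibitor, was higher with TAZ siRNA under vehicle (0.17 ± 0.03, adjusted p = 0.00321) and under dDAVP (0.21 ± 0.03, adjusted p = 0.00025).

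Of 10 tested genes listed as NFAT kinases, nuclear transport factors and a scaffold protein, edgeR called 0 with dDAVP in either arm. Of all genes, 19.2% were called with control siRNA and 10.8% with TAZ siRNA, so 0 of 10 says little about this list. In each arm 3 had an unadjusted p under 0.05. DESeq2 called 0 and 1, and limma-voom 0 in both. Dyrk1a was lower with TAZ siRNA under vehicle (-0.12 ± 0.03, adjusted p = 0.0399), a call lost in 9 of 18 alternative fits, among them those without any 1 control siRNA vehicle library, TAZ siRNA vehicle library 2 or 3, or TAZ siRNA dDAVP library 3 (0.0506 to 0.191 over the 9). Gsk3a was higher with TAZ siRNA under dDAVP (0.14 ± 0.04, adjusted p = 0.0407), also lost in 9 of 18, among them those without control siRNA vehicle library 1 or 2, control siRNA dDAVP library 1 or 3, TAZ siRNA vehicle library 2, or TAZ siRNA dDAVP library 1 or 3 (0.0502 to 0.186). Of 10 NFAT5 regulators tested, 2 rose and 1 fell with dDAVP under control siRNA, where 9.72% of all genes rose and 9.48% fell. Under TAZ siRNA 1 rose, where 6.38% of all genes did. Akap13, an anchoring protein for protein kinase A, rose with dDAVP in both arms (0.21 ± 0.05, adjusted p = 0.00353, and 0.22 ± 0.05, adjusted p = 0.00391). Map2k3, a kinase above p38, rose by 0.16 ± 0.04 (adjusted p = 0.0193; 0.0729 to 0.119 without control siRNA vehicle library 2 or dDAVP library 1 or 2) under control siRNA. Parp1 fell there by 0.11 ± 0.03 on the log2 scale (adjusted p = 0.0236; 0.0535 to 0.0855 without control siRNA vehicle library 1 or 2 or dDAVP library 1). With TAZ siRNA edgeR called 0 of these regulators under either treatment, where 6.3% of all genes were called with vehicle and 10.7% with dDAVP. At an unadjusted p under 0.05 there were 5 with vehicle and 4 with dDAVP. DESeq2 called 2 and 0, and limma-voom 0 in both.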

How the data were processed

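RNA of 12 mpkCCDc11 libraries was sequenced, per the labels' protocols with a TruSeq stranded mRNA kit. Bowtie 0.12.2 and the builds mm8 and mm10 stand without roles in the submitters' processing notes, which name no counting tool. The authors deposited estimated counts per gene and transcript, written as whole numbers, and FPKM, per the file headers. For transcript values of 2 to 20, the count that FPKM and length imply was not whole in 85.6% of 157342 cases (tolerance 0.05), so the values are expected counts, not tallies. In 100% of the 157342 cases the deposited whole number was the implied count rounded up, within that tolerance. The 24 remaining per-sample columns, in TPM, were left out. Mouse gene coordinates are those deposited, and those of all 10 members equal RefSeq GRCm38.p6. RefSeq promoter windows were matched for 7 of the 10 members.

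Counts were fitted in R 4.3.3 with edgeR 4.0.16 (TMM factors 0.988 to 1.01, filterByExpr with a minimum count of 10, robust quasi-likelihood F test, 1 mean per group over 12 libraries), which kept 15932 of 45777 genes with 99.98% of counts. The script was tested on simulated data. SE is the log2 change divided by the root of F, and intervals are 95%. CPM uses the TMM-scaled total. Transcripts were fitted the same way. Replicates of a group differed by more than sampling noise (chi-square over its degrees of freedom 4.09 to 12.6), so none was counted as a duplicate. Alternatives were DESeq2 1.42.0, limma-voom (limma 3.58.1), RLE factors, no count filter, a replicate block, the compared groups alone and leaving out each library. Deviations of same-numbered libraries from their group means had small correlations (18 pairs, r from -0.043 to 0.080). With groups of 3 libraries such values cannot decide whether the numbers pair them, so the main fit used no pairing.

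The members, lists and rules were chosen with earlier results of these data known. Named genes are the 10 members, up to 6 called genes of each other list by smallest adjusted p, the 5 genes with the highest correlation to Nfat5 and to Rcan1, and Wwtr1. Hspa4, Hsph1 and Slc6a12 fall outside this rule and were named after their values were seen.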

Additional observations from a re-analysis of the deposited data

How the results depend on the processing

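Of the members' values recomputed under the alternatives, 748 kept their direction and their side of the threshold, 23 lost and 6 gained a call, and 23 changed sign. The calls of Nfat5 with control siRNA, of Rcan1 in both arms, and of Nfatc2 and Hspa4l for dDAVP with TAZ siRNA held in all 18 alternatives. The number of members called with dDAVP under control siRNA was 2 to 4 when 1 library was left out, that for TAZ siRNA under vehicle 1 to 3 (1 with the compared groups alone), and that for TAZ siRNA under dDAVP 0 to 1. Over all genes, calls without 1 library numbered 1118 to 1752 for dDAVP with TAZ siRNA, 410 to 1435 for TAZ siRNA with vehicle, 1049 to 1912 for TAZ siRNA with dDAVP and 3 to 16 for the difference of responses, which had 98 in DESeq2 and 12 without the count filter. The Rcan1 short-form difference ran from 7.87 to 13.1 points for dDAVP and from -3.22 to 1.97 for TAZ siRNA. Values near 0 changed sign: without 1 library, Nfat5 under TAZ siRNA with vehicle ran from -0.0289 to 0.0419, Nfatc2 and Nfatc3 under TAZ siRNA with dDAVP from -0.0447 to 0.0106 and from -0.0308 to 0.0512, and Nfatc3 under dDAVP with TAZ siRNA from -0.0751 to 0.0061. The differences of responses ran from -0.0652 to 0.0441 for Nfatc1, -0.0724 to 0.0334 for Ppp3ca, -0.0647 to 0.0291 for Rcan1 and -0.0261 to 0.126 for Akr1b3. Nfatc3 under TAZ siRNA with dDAVP was -0.0026 without the count filter, and the difference for Nfatc1 was 0.00105 in limma-voom. The short Rcan1 form ran from -0.156 to 0.137 for TAZ siRNA with vehicle and -0.0180 to 0.280 for the difference, and the long form from -0.0512 to 0.282 for dDAVP with control siRNA and -0.104 to 0.0568 for TAZ siRNA with dDAVP (transcript fits without 1 library were added after seeing the data). The cause was not tested.

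With the replicate number as a block, members called numbered 4, 4, 2, 1 and 0 in the 5 comparisons and genes called 2983, 1663, 968, 1690 and 6, and no call of a member changed. Same-numbered libraries had correlations of -0.043 to 0.080 in their deviations, and 7 of 12 libraries correlated best with their own number. These values cannot decide whether same-numbered libraries were handled together, and the labels give only the number.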
